A study of Mus musculus with 18 samples.

Results

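Pparg and 7 further genes of adipogenesis and fatty acid handling were followed across mouse embryonic fibroblasts (MEFs) given control siRNA or siRNA against Imp2. Imp2 encodes the RNA-binding protein IMP2, whose protein level was not measured in these data. The 8 genes are Pparg, Ppard and Ppara, which encode the 3 peroxisome proliferator-activated receptors (PPARs), the preadipocyte commitment factor gene Zfp423, and the lipid-handling genes Fabp4, Lpl, Cd36 and Plin2. They were chosen by name from 48709 genes of the RNA-seq count table, with earlier RNA-seq and RIP-seq results of these libraries known, and looked up by the same symbols in a list of RNAs precipitated with IMP2. Which comparison guided the choice is not recorded, so every RNA-seq contrast counts as used. The values of these genes are therefore a description, and their p-values say where each gene fell in a fit over all genes, not how the group of genes behaves.

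PPARs are nuclear receptors that pair with the retinoid X receptor (RXR) on DNA and switch on genes of lipid metabolism when a fatty acid-type ligand binds. PPARγ, the product of Pparg, is required to form adipocytes, and fibroblasts such as MEFs become adipocytes when it is raised. PPARα drives fatty acid oxidation, chiefly in liver, and PPARδ does so in many tissues. Fabp4 and Cd36 are target genes of PPARγ in fat cells and macrophages.

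The cells were C57BL/6 MEFs transfected either with a control siRNA (labelled Mock) or with an siRNA against Imp2 (Igf2bp2), and 24 h later left without stimulation or given IL-17, an inflammatory cytokine, at 200 ng/mL for 8 h. Each of the 4 groups (control siRNA, control siRNA plus IL-17, Imp2 siRNA, Imp2 siRNA plus IL-17) held 3 RNA-seq libraries, 1 with the title prefix RB160 and 2 with the prefix NA. All 12 libraries were therefore transfected, and nothing in the labels says whether libraries of a group came from separate cultures, so p-values measure only the spread between these libraries. The RNA precipitation (RIP-seq) used MEFs under the same IL-17 concentration for 3 h, with 3 anti-IMP2 and 3 IgG libraries.

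The RNA-seq libraries held 33841054 to 44433699 counts. Igf2bp2 measured 134 to 167 CPM (the count relative to the scaled library size) in the 6 control siRNA libraries and 18.4 to 28.2 CPM in the 6 Imp2 siRNA libraries, so the labels held and the transcript was lowered, not removed. The title prefix split the libraries within every group: 69.3% of 13702 tested genes differed between RB160 and NA, so the prefix was a term of the model and values are given within each prefix. Of the 9 fibroblast markers all were tested, and their summed level was 15846 to 23492 CPM over the 12 libraries. Of the 6 mature adipocyte markers (Adipoq, Plin1, Cidec, Lep, Retn, Cfd) 0 were tested. Adipoq and Lep had 0 counts in all 12 libraries, and the 6 together reached 0.0221 to 0.197 CPM. Fibroblast markers were thus high and mature adipocyte markers at or near 0, so "adipogenic" refers here to what the genes are known for. Macrophages and endothelial cells also express Cd36, Fabp4, Lpl and Plin2. Of the macrophage markers Adgre1 and Fcgr1 had 0 counts throughout, and the 7 in the table summed to 3.81 to 6.09 CPM. No endothelial marker was at 0 throughout, and the 6 summed to 0.520 to 1.50 CPM. Fabp4 and Lpl themselves reached no more than 2.03 and 0.928 CPM, and the part of such cells in them was not tested.

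Of the 8 genes, 5 passed the filter on low counts (Pparg, Fabp4, Lpl, Plin2, Ppard) and 3 did not (Zfp423, Cd36, Ppara). Lpl passed through the 4 RB160 libraries, where it had 26 to 44 counts against 0 to 7 in the NA libraries. With Imp2 siRNA, Pparg and Fabp4 were lower and Plin2 was higher, both without and with IL-17. Ppard was higher by a small margin with IL-17. IL-17 itself moved 1 of the 5, Pparg, and that in Imp2 siRNA cells.

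**Figure D1:**
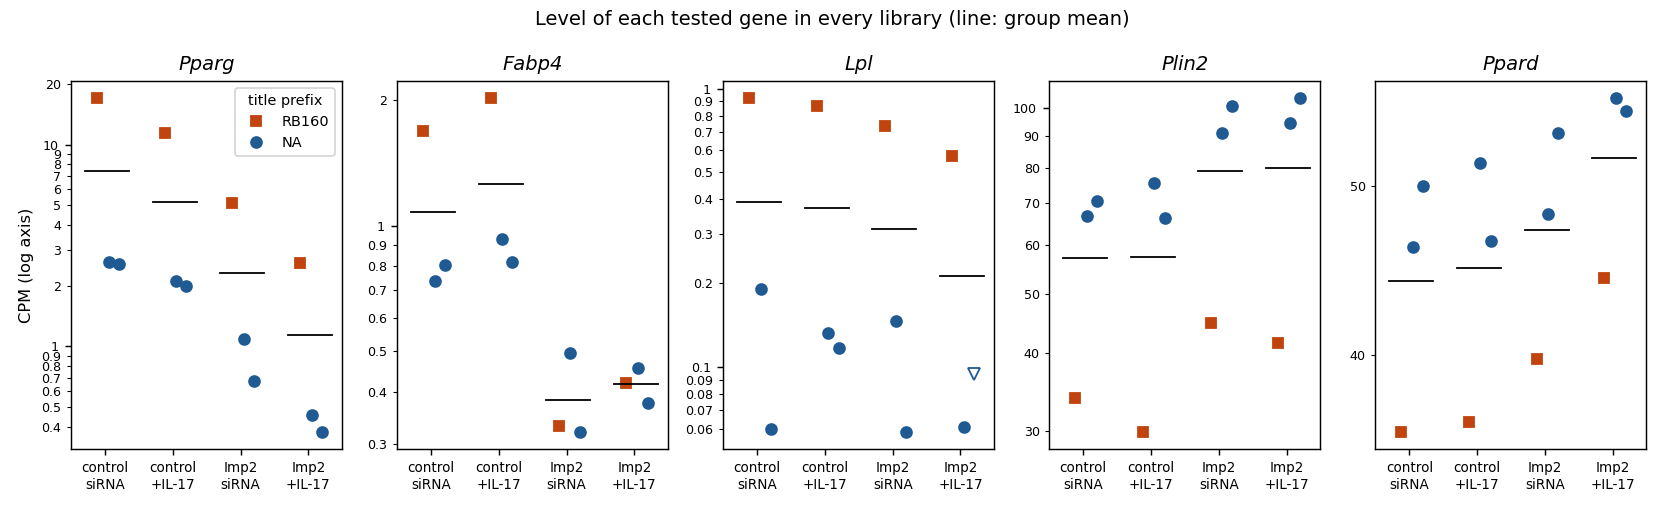
Level in CPM (log axis) of the 5 tested genes in each of the 12 libraries, by group; squares are RB160 and circles NA libraries, lines are group means, and the open triangle marks a library with 0 Lpl counts, drawn at the level that a count of 0 allows (0.0941 CPM). Pparg is higher in RB160 and, within either prefix, lower in Imp2 siRNA than in control siRNA libraries; Plin2 shows the opposite on both counts.

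Pparg (ENSMUSG00000000440, chromosome 6, 115360951 to 115490399, plus strand, mm10) has several transcription starts. RefSeq (GRCm38.p6) gives promoter regions, from 250 bases before to 50 after a start, for 6 of the 8 genes, 9 regions in all. The 3 regions of Pparg and that of Plin2 are shown because these genes moved in opposite directions with Imp2 siRNA. Capitals mark AGGTCA, the core letters that PPAR and RXR each bind, and TTGCNNAA, a form of the site of C/EBP factors, each on either strand.
Pparg, start 1, chr6:115360894-115361193, + strand: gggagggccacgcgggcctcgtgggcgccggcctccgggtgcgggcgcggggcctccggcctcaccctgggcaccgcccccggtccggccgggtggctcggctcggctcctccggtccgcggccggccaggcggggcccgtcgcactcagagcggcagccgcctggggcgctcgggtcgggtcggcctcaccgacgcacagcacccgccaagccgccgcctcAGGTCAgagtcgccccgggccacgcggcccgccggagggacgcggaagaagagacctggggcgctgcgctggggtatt
Pparg, start 2, chr6:115362099-115362398, + strand: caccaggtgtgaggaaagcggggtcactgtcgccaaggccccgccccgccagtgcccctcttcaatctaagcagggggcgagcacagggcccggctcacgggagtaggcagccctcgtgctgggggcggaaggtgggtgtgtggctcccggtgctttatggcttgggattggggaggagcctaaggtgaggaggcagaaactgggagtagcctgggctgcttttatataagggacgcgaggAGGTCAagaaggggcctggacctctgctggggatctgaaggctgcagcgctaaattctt
Pparg, start 3, chr6:115421816-115422115, + strand: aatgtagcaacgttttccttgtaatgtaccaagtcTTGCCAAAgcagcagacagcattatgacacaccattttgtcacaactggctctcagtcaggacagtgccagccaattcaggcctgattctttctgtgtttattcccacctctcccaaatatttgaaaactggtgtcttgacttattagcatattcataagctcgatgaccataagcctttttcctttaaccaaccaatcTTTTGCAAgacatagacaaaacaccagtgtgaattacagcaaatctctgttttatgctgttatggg
Plin2, chr4:86670010-86670309, - strand: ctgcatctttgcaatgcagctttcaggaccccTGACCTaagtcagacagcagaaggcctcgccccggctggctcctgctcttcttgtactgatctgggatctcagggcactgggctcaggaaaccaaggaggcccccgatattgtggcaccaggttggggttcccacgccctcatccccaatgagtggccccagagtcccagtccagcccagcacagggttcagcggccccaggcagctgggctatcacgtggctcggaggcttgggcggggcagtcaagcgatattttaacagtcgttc
The Pparg regions of starts 1 and 2 hold AGGTCA once each, and so does that of Plin2. The region of start 3 holds no AGGTCA but TTGCNNAA 2 times. It is also the poorest in G and C of the 3, at 40.3% against 80.3% and 62.7%. AGGTCA occurs in 16.3% and TTGCNNAA in 10.8% of 32851 mouse promoter regions of 300 bases. The exact direct repeat of AGGTCA with 1 base between, the consensus form of the PPAR and RXR site, was in 0 of the 9 regions and in 0.0396% of all. With so rare a string nothing is read from its absence, and sites that depart from these letters were not searched. A match is a run of letters and not a shown binding site. The count table sums reads over a gene, so these data do not tell which start the Pparg reads came from.

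Pparg was lower with Imp2 siRNA. Control siRNA libraries measured 17.1 CPM in RB160 and 2.62 and 2.57 CPM in NA, from 718, 96 and 86 counts. Imp2 siRNA libraries measured 5.15 CPM in RB160 and 1.08 and 0.671 CPM in NA, from 218, 37 and 23 counts. The 2 groups overlap when prefixes are pooled, because RB160 lies so far above NA. Within each prefix every Imp2 siRNA library was below every control library. How many of all genes separate in this way was not counted, so nothing is read from this order. The group means were 7.42 ± 8.36 CPM (SD, n = 3) and 2.30 ± 2.48 CPM (n = 3), SDs that are mostly the gap between prefixes. In the fit with the prefix this was a 3.12-fold lower level, or -1.64 on the log2 scale (SE 0.148, adjusted p = 2.48e-06). The log2 ratio was -1.73 within RB160 and -1.57 within NA.

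With IL-17 in both arms the difference was of the same direction. Control siRNA plus IL-17 gave 11.4, 2.10 and 1.99 CPM, and Imp2 siRNA plus IL-17 gave 2.58, 0.456 and 0.376 CPM, with RB160 named first. The last 2 of these libraries held 15 and 12 Pparg counts. The fitted level was 4.65-fold lower, or -2.22 on the log2 scale (SE 0.166, adjusted p = 5.25e-07), with -2.15 within RB160 and -2.29 within NA. The siRNA effect on Pparg, averaged over both IL-17 states, was -1.94 in RB160 and -1.92 in NA. The difference of these, -0.01 (SE 0.415), did not pass in a test added after the data were seen (adjusted p = 0.995). Both calls were also made with DESeq2 (adjusted p = 1.87e-16 and 8.13e-23) and in the NA libraries alone (1.56e-04 and 1.93e-05). Without the prefix term neither passed (adjusted p = 0.557 and 0.44). These are bulk libraries, in which fewer cells carrying an mRNA and less of it per cell cannot be told apart.

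**Figure D2:**
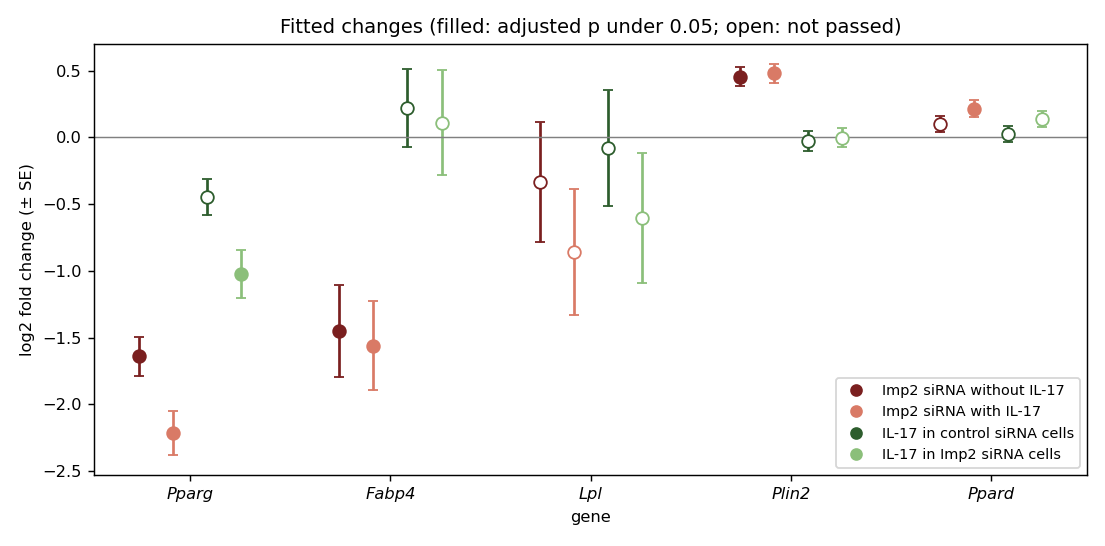
Fitted log2 fold change (y axis, bars are ± SE) of the 5 tested genes in the 4 comparisons, from the fit to all 12 libraries; filled points passed at adjusted p under 0.05 and open points did not. Pparg has the lowest values, at -1.64 and -2.22 for Imp2 siRNA, Fabp4 follows at -1.45 and -1.56, and Plin2 lies above 0 at 0.46 and 0.48.

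After IL-17, Pparg was lower in Imp2 siRNA cells, by a log2 fold change of -1.02 (SE 0.178, adjusted p = 0.0189), or 2.03-fold. It was the 1 member past the threshold among 5 tested, in a comparison where 0.452% of all genes passed (0.168% lower). Levels went from 5.15 to 2.58 CPM in RB160 and from 1.08 and 0.671 to 0.456 and 0.376 CPM in NA. Within either prefix no library with IL-17 reached one without, but the groups overlap when prefixes are pooled. How common such a separation within prefixes is among all genes was not counted, so it adds nothing to the call. In control siRNA cells the value was -0.45 (SE 0.136, adjusted p = 0.221, unadjusted p = 0.00498), from 17.1 to 11.4 CPM in RB160 and from 2.62 and 2.57 to 2.10 and 1.99 CPM in NA. None of the 5 passed there by edgeR or by DESeq2, Pparg was the 1 with an unadjusted p under 0.05, and 0.409% of all genes passed. The comparison of IL-17 effects itself, the interaction, gave -0.57 for Pparg (SE 0.223, unadjusted p = 0.0218, adjusted p = 1), and 0 of 5 members and 0% of all genes passed by edgeR and 0 genes by DESeq2, with 141 of 13702 genes at an unadjusted p under 0.05. A larger fall in Imp2 siRNA cells was thus not shown.
The call in Imp2 siRNA cells was lost in the NA libraries alone (-1.06, adjusted p = 0.325) and without any of 5 libraries. These were Imp2 siRNA replicates 1 (adjusted p = 0.182) and 2 (0.0693) and Imp2 siRNA plus IL-17 replicates 1 (0.228), 2 (0.0574) and 3 (0.0583), and over all libraries left out the value stayed between -1.11 and -0.91.

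Ppard, the PPAR gene of many tissues (chromosome 17, 28232754 to 28301469), had 1518 to 2003 counts in each library. Control siRNA libraries measured 36.1 CPM in RB160 and 46.1 and 50.0 CPM in NA, and Imp2 siRNA libraries 39.8, 48.2 and 53.6 CPM in the same order. These ranges overlap, and the log2 fold change of 0.10 (SE 0.0621, adjusted p = 0.234) did not pass. With IL-17 the values were 36.6, 51.5 and 46.5 CPM in control and 44.2, 56.2 and 55.2 CPM in Imp2 siRNA cells. There Ppard rose by 0.21 (SE 0.0618, adjusted p = 0.0156), a 1.16-fold difference, with 0.27 within RB160 and 0.18 within NA. This call was lost in the NA libraries alone (adjusted p = 0.093). It was also lost without control siRNA plus IL-17 replicate 1 (0.066) or 3 (0.0747) or Imp2 siRNA plus IL-17 replicate 1 (0.0588), within a range of 0.00924 to 0.0747 over the libraries left out. IL-17 gave 0.02 in control and 0.14 in Imp2 siRNA cells, and neither passed.

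The 2 receptors can be set against each other within a library, which needs no scaling between libraries. For every 100 Ppard counts there were 47.3 Pparg counts in the RB160 control library and 5.68 and 5.13 in the NA control libraries. IL-17 libraries of control cells held 31.3, 4.07 and 4.27. Imp2 siRNA libraries held 13.0, 2.25 and 1.25, and those with IL-17 5.84, 0.811 and 0.681. In each prefix the order of the groups was the same, from control siRNA at the top to Imp2 siRNA plus IL-17 at the bottom. The ratio reuses the Pparg counts tested above, and how common such an order is was not counted. Nothing is therefore read from this order, its IL-17 steps included. The values are ratios of counts to 2 genes of unequal length. They show a shift in the ratio and not how many transcripts of each were present.

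**Figure D3:**
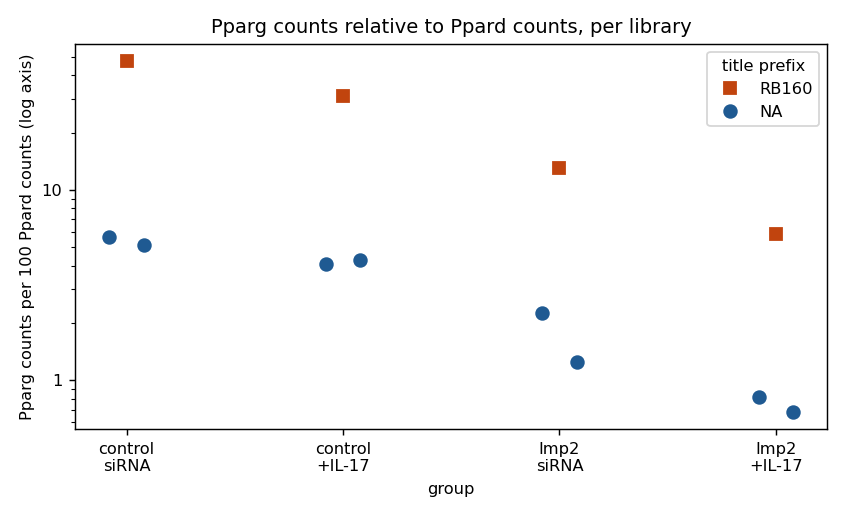
Pparg counts per 100 Ppard counts (log axis) in each library, by group; squares are RB160 and circles NA libraries. The ratio falls from 47.3 to 5.84 in RB160 and from 5.68 and 5.13 to 0.811 and 0.681 in NA between control siRNA and Imp2 siRNA plus IL-17.

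Ppara, the PPAR gene of fatty acid oxidation, was near the limit of detection. It had 7, 2 and 0 counts in control siRNA, 2, 0 and 0 in control siRNA plus IL-17, 3, 2 and 2 in Imp2 siRNA and 1, 1 and 0 in Imp2 siRNA plus IL-17 libraries. At this depth 0 counts allow 0.0590 to 0.0941 CPM in a library, by counting error alone. Fitted without a filter on low counts, it passed in none of the comparisons (adjusted p = 0.712 or above). A change of Ppara was thus not detectable here.

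Fabp4, a cytosolic fatty acid carrier and a standard marker of PPARγ activity in fat cells (chromosome 3, 10204088 to 10208576, minus strand), was lower with Imp2 siRNA at a level of about 1 CPM. Control siRNA libraries measured 1.69 CPM in RB160 and 0.737 and 0.806 CPM in NA, from 71, 27 and 27 counts. Imp2 siRNA libraries measured 0.331, 0.497 and 0.321 CPM, from 14, 17 and 11 counts. All 3 Imp2 siRNA libraries lay below all 3 control libraries, as did 9.25% of all tested genes. The fitted level was 2.73-fold lower, or -1.45 on the log2 scale (SE 0.345, adjusted p = 0.00519). With IL-17, 2.03, 0.929 and 0.817 CPM stood against 0.420, 0.456 and 0.376 CPM, again without overlap, which held for 9.58% of all genes in this direction. There the fitted level was 2.95-fold lower, or -1.56 on the log2 scale (SE 0.334, adjusted p = 0.00248).

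The prefixes gave unequal sizes for Fabp4. The log2 ratio without IL-17 was -2.35 within RB160 and -0.92 within NA, and with IL-17 -2.27 and -1.07. Averaged over the IL-17 states the siRNA effect was -2.30 and -0.99, a difference of -1.31 (SE 0.399, adjusted p = 0.0633) that did not pass in the test added after the data were seen. In that test 6.13% of all genes passed. Fabp4 was 1.64-fold higher in RB160 over all groups (log2 0.71, adjusted p = 0.0145), but Imp2 siRNA libraries of both prefixes reached the same low range of 0.321 to 0.497 CPM. The call without IL-17 was lost without Imp2 siRNA replicate 1, the RB160 library (-0.99, adjusted p = 0.0622), and in the NA libraries alone (-0.92, adjusted p = 0.0642). IL-17 changed Fabp4 by 0.22 in control and 0.11 in Imp2 siRNA cells, with SEs of 0.291 and 0.392, and neither passed. Pparg and Fabp4 thus both fell with Imp2 siRNA, while of the 2 only Pparg passed for IL-17. Whether the IL-17 effects on these 2 genes differ was not tested.

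**Figure D4:**
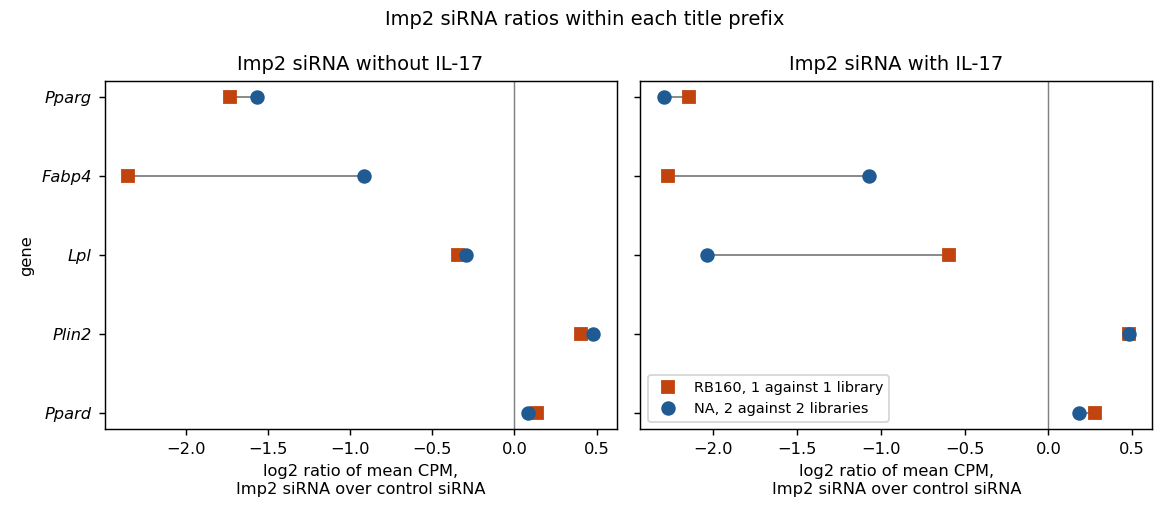
Log2 ratio of mean CPM, Imp2 siRNA over control siRNA, for the 5 tested genes without IL-17 (left) and with IL-17 (right), taken within RB160 (squares, 1 library against 1) and within NA (circles, 2 against 2). Pparg, Plin2 and Ppard have similar ratios in both prefixes, Fabp4 is lower in RB160 (-2.35 and -2.27) than in NA (-0.92 and -1.07), and the -2.04 of Lpl in NA with IL-17 rests on 9 counts against 2.

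Lpl, which encodes the lipase that frees fatty acids from lipoproteins (chromosome 8, 68880491 to 68907448), did not pass in any siRNA or IL-17 comparison. Control siRNA libraries measured 0.928 CPM in RB160 and 0.191 and 0.0597 CPM in NA, and Imp2 siRNA libraries 0.733, 0.146 and 0.0583 CPM. With IL-17, 0.865, 0.133 and 0.117 CPM stood against 0.574, 0.0608 and 0 CPM. In each prefix the lowest library was one with Imp2 siRNA, in NA with 0 counts. The ranges overlap when all are pooled, and nothing is read from this order. Without IL-17 the fit gave -0.34 on the log2 scale (SE 0.452, adjusted p = 0.607), and with it -0.86 (SE 0.471, adjusted p = 0.179). Leaving out single libraries gave -0.50 to -0.13 and -1.88 to -0.66, the lowest without Imp2 siRNA plus IL-17 replicate 1, the RB160 library, and none passed. With SEs near 0.5, a change of the size of that of Plin2 could not have been told from 0.

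Cd36, a fatty acid transporter and scavenger receptor, had 1 count in 1 control siRNA library, 1 in 1 control siRNA plus IL-17 library and 0 in the other 10. The 0 counts allow no more than 0.0590 to 0.0941 CPM per library, so no difference could be seen. Zfp423, a zinc-finger factor that commits mesenchymal cells to the preadipocyte state, had 1 to 12 counts in each library. It measured 0.0951, 0.191 and 0.119 CPM in control siRNA and 0.0236, 0.351 and 0.175 CPM in Imp2 siRNA libraries. With IL-17 it measured 0.0197, 0.133 and 0.175 CPM in control siRNA and 0.0442, 0.152 and 0.0627 CPM in Imp2 siRNA libraries. These groups overlap in each comparison, and without the filter on low counts none passed (adjusted p = 0.858 or above). The RB160 libraries held 1 to 4 and the NA libraries 2 to 12 counts of Zfp423, ranges that overlap.

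Plin2, which coats lipid droplets in nearly all cell types and is a target of PPARs (chromosome 4, 86648386 to 86670060, minus strand), rose with Imp2 siRNA. Control siRNA libraries measured 33.8 CPM in RB160 and 66.8 and 70.8 CPM in NA, and Imp2 siRNA libraries 44.8, 91.0 and 101 CPM. With IL-17 the values were 29.8, 75.6 and 66.3 CPM in control and 41.6, 94.3 and 104 CPM in Imp2 siRNA cells. When prefixes are pooled the groups overlap, both without and with IL-17. Within each prefix every Imp2 siRNA library was above every control library, with 1423 to 3458 counts behind each value. The share of all genes that separate in this way was not counted, so nothing is read from this order. Without IL-17 the fit gave a 1.37-fold rise, 0.46 on the log2 scale (SE 0.0725, adjusted p = 2.97e-04), and with it a log2 rise of 0.48 (SE 0.0723, adjusted p = 1.80e-04). Within RB160 the log2 ratios were 0.40 and 0.48, and within NA 0.48 and 0.48. IL-17 gave -0.03 (SE 0.0727) in control and -0.0025 (SE 0.0718) in Imp2 siRNA cells, and neither passed.

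In all, 1 of 5 tested members rose and 2 fell without IL-17, where 32.4% of all genes passed (16.1% higher, 16.4% lower), and 2 rose and 2 fell with IL-17, where 33.3% did (16.7% higher, 16.6% lower). Since the genes were chosen with results known, nothing is read from these counts. The siRNA comparisons with and without IL-17 shared no library. Both came from the same fit to all 12 libraries, with the same prefix term and estimate of the spread, so they are not independent. The fibroblast markers also moved with the siRNA: 6 of 9 fell and 1 rose in each comparison, while their summed level of 18166 to 22275 CPM in control and 18563 to 23492 CPM in Imp2 siRNA libraries overlapped. Of 4 tested preadipocyte and fibroblast progenitor markers 2 fell, and the sum over the 6 on that list was 243 to 391 CPM in control and 216 to 271 CPM in Imp2 siRNA libraries. Of 5 tested muscle markers 4 rose, and the sum over 6 was 5410 to 10153 CPM in control and 10759 to 20088 CPM in Imp2 siRNA libraries. Of 4 tested epithelial markers 2 rose and 1 fell without and 3 rose and 1 fell with IL-17, and the sum over 5 was 41.7 to 125 CPM in control and 69.2 to 207 CPM in Imp2 siRNA libraries. With IL-17 the sums were 232 to 412 against 194 to 251 CPM for the progenitor markers, 4049 to 9745 against 8779 to 18859 CPM for the muscle markers and 37.9 to 113 against 50.7 to 166 CPM for the epithelial markers. Their part in the changes of Pparg, Fabp4 and Plin2 was not tested.

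The prefixes also differed in Pparg, Plin2 and Ppard, with fitted log2 values larger in size than either siRNA value, a difference that was not itself tested. Pparg was 6.04-fold higher in RB160 (log2 2.60, SE 0.103, adjusted p = 6.78e-11). Lpl, with 26 to 44 counts in RB160 and 0 to 7 in NA, passed the filter on low counts through RB160, so no test of its prefix difference is given. Plin2 was 2.23-fold lower (log2 -1.16, SE 0.0571, adjusted p = 4.88e-10) and Ppard 1.30-fold lower (log2 -0.38, adjusted p = 5.00e-06). The 4 RB160 libraries held 2.58 to 17.1 CPM of Pparg and the 8 NA libraries 0.376 to 2.62 CPM, so the RB160 library with the least was just below the NA library with the most. Mitochondrial transcripts took 3.31% to 3.85% of counts in RB160 and 5.41% to 6.90% in NA, and the macrophage marker sums overlapped, at 3.81 to 5.63 CPM and 3.89 to 6.09 CPM. Fibroblast sums (18159 to 23492 against 15846 to 19576 CPM) and muscle sums (4049 to 10759 against 8403 to 20088 CPM) overlapped too. Mature adipocyte sums, at 0.0221 to 0.197 against 0.0266 to 0.175 CPM, did as well. The sums of the 3 remaining lists did not overlap between RB160 and NA. How many of all genes are without overlap between the prefixes was not counted, so nothing is read from this. The 69.3% of tested genes that differed passed the fitted prefix term, which is another measure. Progenitor markers stood at 250.8 to 412 against 194 to 249.9 CPM, a narrow gap. Epithelial markers stood at 37.9 to 69.2 against 84.0 to 207 CPM, and endothelial markers at 0.520 to 0.688 against 0.881 to 1.50 CPM. Their part in the prefix difference of the members was not tested. The labels do not say what the title prefix means.

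RIP-seq asked which of these RNAs came down with IMP2 after IL-17. In the authors' deposited table of enriched genes Pparg had a log2 fold change of 2.64 over IgG (SE 0.531, adjusted p = 4.77e-06) at a mean of 91.2 normalized counts. Ppard was listed in the same authors' deposited table at 1.79 (SE 0.269, adjusted p = 5.40e-10) and 189 normalized counts. The values of the 5294 genes in the authors' deposited table start at 1.00 and have a median of 2.16, and 30.0% of them lie above Pparg and 66.9% above Ppard. The other 6 members were not listed, and since the table holds only genes past the authors' thresholds, nothing follows for them. Listed members were 2 of 8, or 2 of the 5 tested in RNA-seq, where 34.5% of all tested genes were listed. Pparg, lower with Imp2 siRNA, and Ppard, not lower, were thus both among the listed RNAs.

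Pparg was also 1 of 97 genes in a joint table of the authors. The authors' deposited table gives it a signed fold of -4.49 for RNA-seq, whose comparison it does not name, and a motif entry of N. The fold fitted here was 3.12-fold lower without and 4.65-fold lower with IL-17. The table does not say how motifs were searched.

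The genes whose levels followed Pparg most closely were found over the 12 libraries after the mean of each prefix was subtracted from log2 CPM. Among 10103 genes with a mean of at least 5 CPM these were C1qtnf1 (r = 0.99), a secreted C1q/TNF-related protein gene, Zfp395 (0.99), a zinc-finger protein gene, Epha7 (0.98), an ephrin receptor gene, Scara3 (0.98), a scavenger receptor family gene, and Ndnf (0.98), a secreted neurotrophic factor gene. All 5 fell with Imp2 siRNA, by log2 values from -0.75 (Epha7) to -1.88 (Ndnf) without and from -0.91 to -1.99 with IL-17. The 5 were picked for likeness to Pparg over all groups, among many genes and in the same libraries. Their falls are thus largely set by the pick, and both r and the falls are a description. Of the members, r to Pparg was 0.82 for Fabp4, 0.71 for Lpl, -0.88 for Plin2 and -0.88 for Ppard. These r values span all groups, so the siRNA differences given above enter them, and their spread over all genes is not given. Lpl, with 0 to 7 counts in NA libraries, passed in no siRNA or IL-17 comparison, and Ppard did not pass for Imp2 siRNA without IL-17.

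The wider pathway was described with 9 lists of 139 names, of which 112 genes were tested. With Imp2 siRNA 24 rose and 23 fell without IL-17 (42.0% of those tested, against 32.4% of all genes), and 25 rose and 22 fell with it (42.0%, against 33.3%), with medians of 0.03 and 0.04 beside 0.00 and -0.01 over all genes. For IL-17 itself, 0 of 112 passed by edgeR in control and 0 in Imp2 siRNA cells, while 0.409% and 0.452% of all genes passed. An unadjusted p under 0.05 was found for 22 and 12 of the 112 (19.6% and 10.7%, against 10.8% and 7.35% of all genes), and DESeq2 called 7 and 3 (6.25% and 2.68%, against 1.41% and 1.25%). The lists were chosen with results known, so the shares are a description and nothing is read from them.

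**Figure D5:**
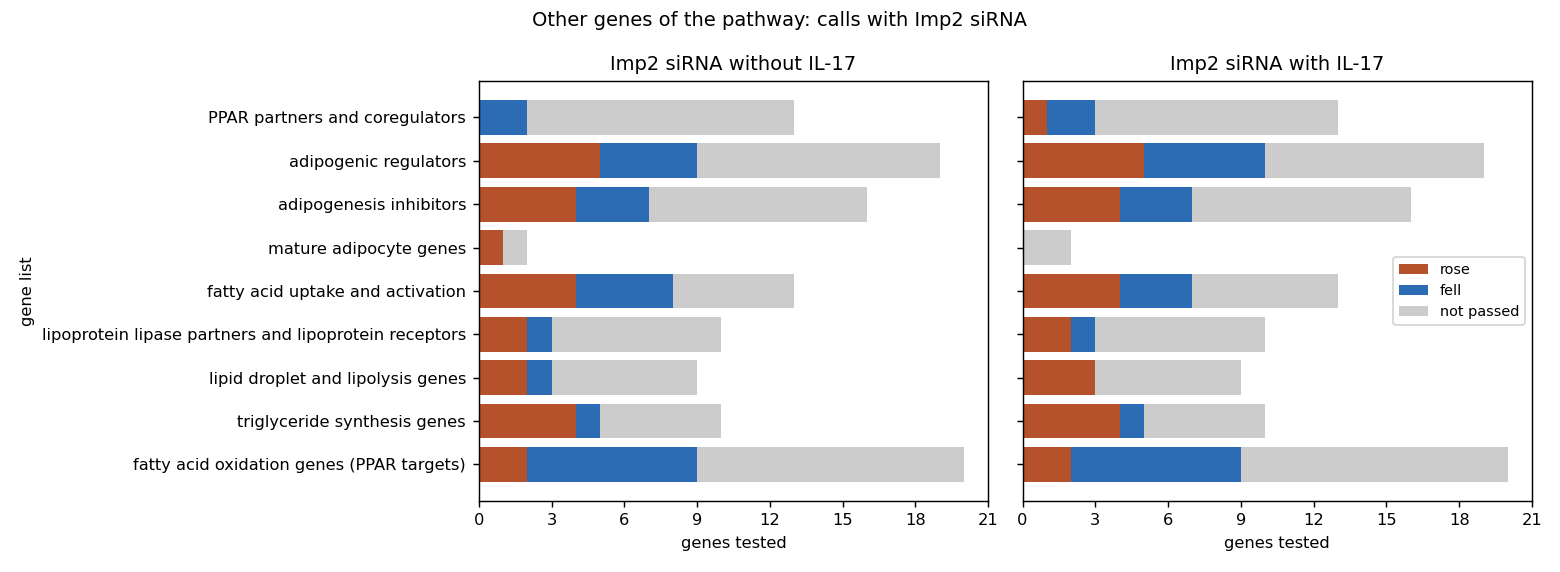
Number of tested genes of each of 9 pathway lists (x axis) that rose, fell or did not pass with Imp2 siRNA, without IL-17 (left) and with IL-17 (right). Most lists hold both rises and falls; fatty acid oxidation genes had 2 rises and 7 falls of 20 in each comparison, and mature adipocyte genes had 2 tested members.

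Among 13 tested partners and coregulators of PPARs, 2 fell without IL-17 and 1 rose and 2 fell with it (medians 0.01 and 0.05), which is 15.4% and 23.1% called where 32.4% and 33.3% of all genes were. Rxra, which encodes the main RXR partner, fell by 0.34 and 0.20 on the log2 scale (adjusted p = 8.00e-04 and 0.0189), and Hdac3, a corepressor enzyme gene, by 0.22 and 0.17. The transducin-like cofactor gene Tle3 rose with IL-17 (0.33, adjusted p = 0.0068).

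Of 19 tested regulators that promote adipogenesis, 5 rose and 4 fell without and 5 rose and 5 fell with IL-17 (medians 0.03 and -0.04), or 47.4% and 52.6% called beside 32.4% and 33.3% of all genes. Cebpd, an early adipogenic C/EBP factor gene, fell from 48.6 to 15.8 CPM in group means (log2 -1.50, SE 0.335, adjusted p = 0.0111, and -1.31 with IL-17). Stat5a, a signal transducer gene, fell (-1.12, SE 0.112, adjusted p = 6.35e-06, and -1.15). Bmp4, a growth factor gene that commits cells to the fat lineage, rose (0.71, adjusted p = 0.00717, and 0.79). Of 16 tested inhibitors of adipogenesis 4 rose and 3 fell in each comparison (43.8% called, beside the same shares of all genes), with Ddit3 (0.65 and 0.60) and Klf2 (0.59 and 0.55), repressors of C/EBP function and of Pparg, among the rises and Tgfb1 (-0.37 and -0.34) among the falls. Each of these passed in both comparisons.

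Fatty acid uptake and activation genes went both ways, with 4 rises and 4 falls of 13 without and 4 and 3 with IL-17 (61.5% and 53.8% called, beside 32.4% and 33.3% of all genes). Cav1 and Cav2, the caveolin genes, rose (0.88 and 0.78 without, 0.94 and 0.85 with IL-17), as did the fatty acid transporter gene Slc27a1 (0.85 and 0.97). The acyl-CoA synthetase genes Acsl1 (-0.35 and -0.52) and Acsl5 (-0.56 and -0.58), named here after their values were seen, fell. Among 10 tested partners of lipoprotein lipase and lipoprotein receptors 2 rose and 1 fell in each comparison, 30.0% of the list and so close to the shares of all genes. The receptor gene Vldlr rose (0.75 and 0.64), and the lysosomal lipase gene Lipa fell (-0.20 and -0.22). Gpihbp1, which anchors Lpl on endothelium, had 0 counts.

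Of 9 tested lipid droplet and lipolysis genes besides Plin2, 2 rose and 1 fell without and 3 rose with IL-17, 33.3% in both and so close to the 32.4% and 33.3% of all genes. Fitm2, a lipid droplet biogenesis gene (0.34 and 0.32), and Pnpla2, the triglyceride lipase gene (0.32 and 0.37), rose in both. Plin3, which encodes another droplet coat protein, was at -0.17 (adjusted p = 0.0457) without IL-17 and -0.06 with it, where it did not pass. Of 10 tested triglyceride synthesis genes 4 rose and 1 fell in each comparison (50% called). Lpin3, a phosphatidate phosphatase gene, rose from 30.1 to 74.4 CPM in group means (log2 1.31, SE 0.0899, adjusted p = 3.40e-07, and 1.17 with IL-17), Agpat3 rose (0.31 and 0.27), and Lpin2 fell (-0.30 and -0.26).

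Of 20 tested fatty acid oxidation genes, many of them targets of PPARs, 7 fell and 2 rose in each comparison (medians -0.06 and -0.13). That is 45% called, beside 32.4% and 33.3% of all genes, and falls were not tested against rises. Pdk4, which restrains glucose oxidation, fell from 33.6 to 18.6 CPM (log2 -0.85, SE 0.143, adjusted p = 9.70e-04, and -0.74 with IL-17). Acadm, the medium-chain acyl-CoA dehydrogenase gene, fell by 0.41 and 0.39 and the thiolase gene Acaa2 by 0.36 and 0.25. Of the mature adipocyte genes besides the markers above, Plin4 (0.05 and -0.09) did not pass, and the adrenergic receptor gene Adrb3 rose without IL-17 (0.93, adjusted p = 0.0078), while its value with IL-17 missed the threshold (0.59, adjusted p = 0.0638).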

How the data were processed

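The authors deposited raw counts per gene for 12 RNA-seq libraries (Nextera XT, per the labels' protocols). For RIP-seq (SMART-Seq v4) only the authors' deposited comparison was used, which gives, per the file headers, a mean normalized count (signal), a log2 fold change with its standard error (lfcSE, here handled as a score) and p-values. STAR, DESeq2, CASAVA 1.4 and the build mm10 appear in the submitters' processing notes, without roles. Strand and the counting tool are not given in the sources used here, so reads of overlapping or antisense genes could not be told apart. A joint table of the authors gives per gene a value for RIP-seq (score), a signed fold and a motif call. That RIP-seq value equals the log2 fold change of Pparg multiplied by 2 and was not read as a fold.

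Counts were fitted in R 4.3.3 with edgeR 4.0.16: filterByExpr (13702 of 48709 genes), TMM scaling, and a robust quasi-likelihood fit to all 12 libraries with group means and an additive term for the title prefix. Adjusted p-values are Benjamini-Hochberg values over the whole table, called under 0.05. SE was obtained from the log2 value and the root of its F statistic. CPM use the TMM-scaled library size. Replicate numbers follow accession order, with RB160 as replicate 1. Pairs of libraries of a group had reduced chi-square values of 9.11 to 233, so none was a duplicate. Alternatives were DESeq2 1.42.0, RLE factors, no filter, no prefix term, compared groups only, NA libraries only, and each library left out. Recovery of known changes was tested on simulated data. Members and lists were chosen with earlier results of these data known. Named were all 8 members, Igf2bp2, the 5 genes most like Pparg, and of each list the 3 largest changes past the threshold for Imp2 siRNA without IL-17 whose mean reached 5 CPM in either group. 1 gene under this rule is not reported here. Genes named beyond this rule (Tle3, Acsl1, Acsl5, Gpihbp1, Plin4, Adrb3) were picked after their values were seen.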

Additional observations from a re-analysis of the deposited data

How the results depend on the processing

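The count of members past the threshold fell to 0 without the prefix term in 3 comparisons, from 1 for IL-17 in Imp2 siRNA cells, from 3 for Imp2 siRNA without IL-17 and from 4 for Imp2 siRNA with IL-17. Called members kept their direction there, while the gap between prefixes entered the residual spread. In the NA libraries alone the count for IL-17 in Imp2 siRNA cells was 0. Leaving out 1 library at a time gave 0 to 1 there, 2 to 3 for Imp2 siRNA without and 3 to 4 with IL-17, and 0 to 0 for IL-17 in control siRNA cells and for the interaction. DESeq2, RLE factors, no filter and the compared groups alone moved none of these counts by over 1.5-fold. Over all genes DESeq2 called 193 for IL-17 in control and 171 in Imp2 siRNA cells, against 56 and 62 with edgeR.

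Signs turned only in values that passed under no setting. For Plin2 the IL-17 value in control cells became 0.0030 without the prefix term and 0.0471 in NA alone, and that in Imp2 siRNA cells 0.0014 without the filter, 0.0187 without the prefix term, 0.0019 with the compared groups only and 0.0492 in NA alone. With single libraries left out, IL-17 values in control cells spanned -0.0959 to 0.0296 (Plin2), -0.110 to 0.483 (Fabp4), -0.222 to 0.133 (Lpl) and -0.0209 to 0.0621 (Ppard). In Imp2 siRNA cells they spanned -0.0555 to 0.0383 (Plin2) and -0.337 to 0.495 (Fabp4), and interactions -0.0329 to 0.0972 (Plin2) and -0.557 to 0.274 (Fabp4). Lpl had too few counts for the filter in NA alone and in the compared groups only. No paired analysis was possible because, beyond the prefix already in the model, the RNA-seq titles carry no replicate numbers shared by the groups, and RIP-seq came only as a comparison. Depth limits Cd36, Ppara, Zfp423 and Lpl, and Pparg in NA, with 12 to 96 counts.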
